A study of Bos taurus with 12 samples.

Results

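In bovine cells differentiating into fat cells, 107 genes were lower without rosiglitazone and, on average, stayed near their level without insulin. They were chosen by their measured values among the 22372 genes of a table of CPM, each gene's reads scaled to the same total in each of 12 libraries. The values that chose them were the levels in rDM, rDM 0% Ros and rDM 0% Ins, on the scale of log2(CPM + 1), with each deprived medium compared with rDM of the same donor. A member had a mean of at least 20 CPM in rDM, a mean loss of at least 1 on this log2 scale without rosiglitazone that was below 0 in each of 3 donors, and a mean difference without insulin within 0.5 of rDM. The libraries without hydrocortisone and progesterone (HC/PR) took no part in the choice and are the free readout. The rDM libraries they were compared with did take part in it.

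The cells were stromal vascular cells (SVC) from subcutaneous fat of cattle, which the labels call MSC. They were kept for 12 days in serum-free rDM, which held insulin, rosiglitazone, hydrocortisone and progesterone, or in rDM that lacked insulin (rDM 0% Ins), rosiglitazone (rDM 0% Ros) or both hydrocortisone and progesterone (rDM 0% HC/PR). Each medium was used on cells of donors A, B and C, so a group had 3 libraries, and a donor was also 1 batch of mRNA extraction. The libraries were long-read cDNA libraries with between 302754 and 1153853 estimated reads. The CPM were batch-corrected, so the reads of a gene given below are counts after that correction. On that scale, 3 reads corresponded to between 2.71 and 10.2 CPM. Such limits hold for counting error alone, because reads amplified by PCR are not separate molecules. In donors A and C all 4 media were sequenced in the same library pool. In donor B, rDM and rDM 0% Ins were in the first pool and rDM 0% Ros and rDM 0% HC/PR in the second, so in this donor the pool and the medium cannot be told apart.

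Rosiglitazone binds and activates PPARG, a nuclear receptor that pairs with RXR on DNA and drives the genes that make a precursor a fat cell. Insulin acts through a receptor at the cell surface and promotes glucose uptake and lipid synthesis. Hydrocortisone acts through the glucocorticoid receptor, and glucocorticoids are a usual part of the mixtures that start fat cell formation. The genes of the table are given by Ensembl identifiers, and 0 of the 22372 could be paired with a symbol in the reference table used here, so gene families, fat cell markers and promoter or protein sequences were not analysed here. The labelled cell type could not be checked against its markers for the same reason. Most members are therefore described by their rank, and 2 are given by identifier.

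In rDM, the members together had 17829, 18804 and 19127 CPM in donors A, B and C. Their sum was 6143, 6026 and 6856 CPM without rosiglitazone, and 14031, 16821 and 16757 CPM without insulin. These 3 media served for the choice, so the order of their sums is a description of the rule. Without HC/PR the sum was 14257, 12389 and 13493 CPM in donors A, B and C. Each of these values lay below all 3 rDM libraries and above all 3 rDM 0% Ros libraries, and they overlapped with the range without insulin. The rule asked for high values in rDM and low values in rDM 0% Ros, so a sum between them is not independent of the rule. In rDM the mean sum was 18587 ± 675 CPM (SD, n = 3). Without HC/PR, it came to 13380 ± 939 CPM (SD, n = 3). The member with the highest level made up 21.7% of the sum in rDM. When it was left out, the mean sum in rDM was 14555 ± 1100 CPM (SD, n = 3) and that without HC/PR was 10017 ± 866 CPM (SD, n = 3). In bulk libraries such as these, fewer cells that express a gene and less RNA of it per cell cannot be told apart.

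**Figure D1:**
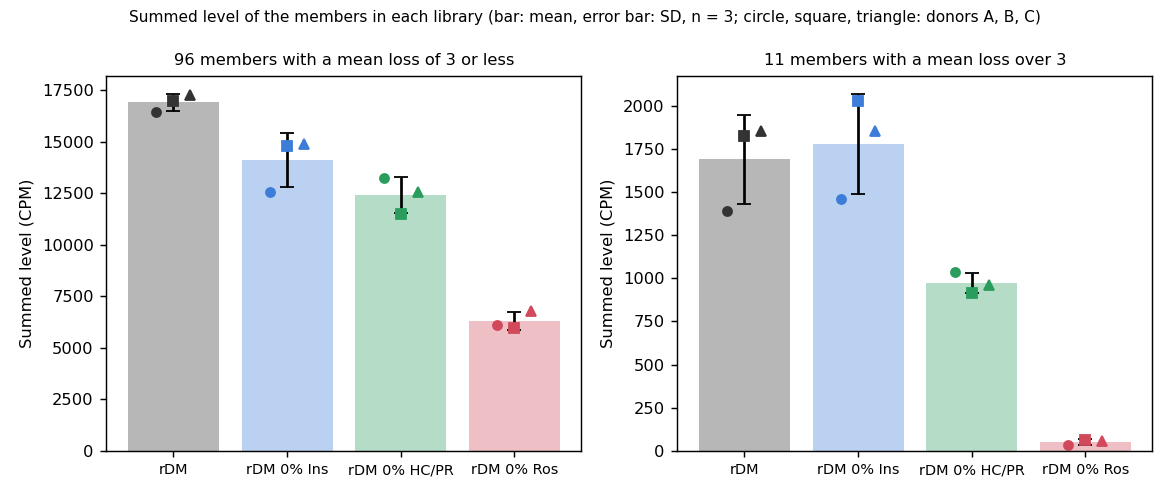
Summed level of the members (CPM, axes from 0) in each library, for the 96 members with a mean loss of 3 or less on the log2 scale (left) and the 11 members with a loss over 3 (right). Bars are means, error bars are the SD over 3 donors and symbols are single donors. In both panels the rDM 0% HC/PR libraries lie between rDM and rDM 0% Ros, which served for the choice.

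Genes at 20 CPM or more in rDM numbered 3861, and 369 of them lost at least 1 on the log2 scale without rosiglitazone with the same sign in each donor. Of these 369 genes, 107 (29.0%) lay within the insulin window and are the members, 255 were lower than the window without insulin, and 7 were higher. The members had a median rDM level of 52.8 CPM, with a lowest of 20.1 and a highest of 4031 CPM. The 255 genes that were also lower without insulin had a median rDM level of 95.8 CPM. Their median loss without rosiglitazone was -2.01, against -1.35 in the members. A loss over 3 was seen in 80 of the 255 genes (31.4%) and in 11 of the 107 members. These values compare sets cut from the same 3 media, so they were not tested.

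The cuts of the rule were narrow against the spread between donors. Just inside the loss threshold lay members with mean differences of -1.0005, -1.002 and -1.01, and just outside it lay genes with -0.995, -0.995 and -0.992. At the lower edge of the insulin window the nearest members were at -0.4997, -0.492 and -0.474 and the nearest genes outside at -0.501, -0.506 and -0.516. At the upper edge the nearest members were at 0.494, 0.445 and 0.391, and the nearest genes outside were at 0.524, 0.546 and 0.807. Around the level threshold, the members were at 20.08, 20.5 and 20.6 CPM and the genes outside at 19.6, 19.3 and 19.2 CPM. The SD of a member's loss over donors had a median of 0.51 on the same log2 scale. With the insulin window at 0.25, 52 genes remained, and with a window of 1 there were 229.

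Most losses were shallow. A mean loss between 1 and 1.5 was found in 62 members (57.9%), between 1.5 and 2 in 17, between 2 and 3 in 17, between 3 and 5 in 4 and over 5 in 7. The share of the rDM level that was left without rosiglitazone had a median of 39.4%, with quartiles of 27.3% and 43.9%. A loss of at least 1 was seen in 78 members in donor A, in 96 in donor B and in 77 in donor C, and in all 3 donors in 51. In 98 of the 107 members, all 3 libraries without rosiglitazone lay below all 3 rDM libraries, where 11.4% of the genes tested did. The rule used these libraries, so this too is a description.

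All 107 members passed the filter of the test across genes, which kept the 9267 genes that reached 5 CPM in 3 or more libraries. At an adjusted p under 0.05 (limma on log2(CPM + 1), donor as a block, Benjamini-Hochberg over all genes tested), 57 members were lower without rosiglitazone, where 3.27% of all genes tested were. The rule used this contrast, and nothing is read from that count. The 57 had a median rDM level of 98.4 CPM and the other 50 had 28.1 CPM. The deepest mean loss among those 50 was -2.68.

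The member with the deepest loss was ENSBTAG00000008493. It was at 33.4, 131.5 and 209.0 CPM in rDM of donors A, B and C, at 55.8, 227.8 and 135.5 CPM without insulin, and at 0 in all 3 libraries without rosiglitazone. Against the limit of 3 reads, averaged over the rDM 0% Ros libraries as 7.58 CPM, its mean level was at least 16.4-fold lower. Without HC/PR it was at 6.64, 7.98 and 17.2 CPM. These 3 libraries lay below the lowest rDM library, and the level in rDM itself differed several-fold between donors. Its difference without HC/PR was -3.19 on the log2 scale (SE 0.56, lower in 3 of 3 donors), with an adjusted p of 0.0881 from limma. The call depended on the fit. The adjusted p was 0.0109 in edgeR with the donor as a block on the recovered reads, 0.0384 in limma without the filter and 0.0141 in limma on the 6 libraries alone, and across the 26 fits that gave one it ranged from 0.0109 to 0.999.

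The lowest level without HC/PR was that of ENSBTAG00000004293. It was at 25.3, 182.9 and 228.2 CPM in rDM of donors A, B and C, and at 0 in all 3 libraries without HC/PR. Without rosiglitazone it was at 15.2, 30.6 and 78.7 CPM, and without insulin at 59.4, 80.4 and 362.4 CPM. So the libraries without HC/PR lay apart from those of every other medium, while those without rosiglitazone overlapped with rDM. Its mean level without HC/PR was at least 23.3-fold lower than in rDM against the limit of 3 reads, which was 6.23 CPM on average over these libraries. The fitted difference was -6.69 (SE 0.58, adjusted p = 0.000234 from limma). Its difference without rosiglitazone was -1.59, which placed it 40th among the members by depth of loss. In donors A and C, whose media shared a pool, it was at 0 without HC/PR as well, and with the pool as a term in the fit its difference without HC/PR was -6.60 (adjusted p = 0.00325 from limma). With donor C left out the adjusted p without HC/PR was 0.0687, and across the 26 fits that gave one it ranged from 5.51e-06 to 0.0687.

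Other members were abundant and kept more of their level. The member with the highest level was at 4457, 4058 and 3579 CPM in rDM and at 1543, 1491 and 1612 CPM without rosiglitazone. It was at 2943, 3539 and 3207 CPM without insulin and at 3357, 3222 and 3510 CPM without HC/PR. The rDM libraries lay above those without HC/PR, although by little in donor C, and the difference without HC/PR was -0.26 (adjusted p = 0.988 from limma). The member with the second highest level was at 1719, 1658 and 1816 CPM in rDM, at 582.1, 563.2 and 697.4 CPM without rosiglitazone and at 1229, 1543 and 1282 CPM without HC/PR. Its range without HC/PR was again below that of rDM and above that of rDM 0% Ros.

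The member with the fourth highest level combined a high level with a deep loss. It was at 593.3, 850.9 and 927.3 CPM in rDM, at 642.9, 1072 and 863.6 CPM without insulin, and at 15.2, 21.4 and 34.1 CPM without rosiglitazone, which left 2.98% of its rDM level. Without HC/PR it was at 533.0, 428.3 and 418.5 CPM. Every library without HC/PR was below every rDM library, and every library without rosiglitazone was far below both. The difference without HC/PR was -0.76 (adjusted p = 0.700 from limma). The member at level rank 13 was different. It was at 270.0, 296.2 and 185.0 CPM in rDM, at 3.79, 21.4 and 0 CPM without rosiglitazone, and at 177.7, 313.9 and 259.9 CPM without HC/PR. Its ranges in rDM and without HC/PR overlapped, with a mean difference of -0.0097.

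The member at level rank 10 was low in both media. It was at 242.0, 382.4 and 485.3 CPM in rDM, at 70.2, 55.1 and 57.7 CPM without rosiglitazone and at 101.3, 101.1 and 175.8 CPM without HC/PR. It was at 333.2, 355.1 and 318.3 CPM without insulin, inside the range of rDM. The difference without HC/PR was -1.54, with all 3 libraries below rDM and an adjusted p of 0.0862 from limma. With the 6 libraries of the comparison alone, the adjusted p was 0.0483, and across the 26 fits that gave one it ranged from 0.0384 to 0.693.

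**Figure D2:**
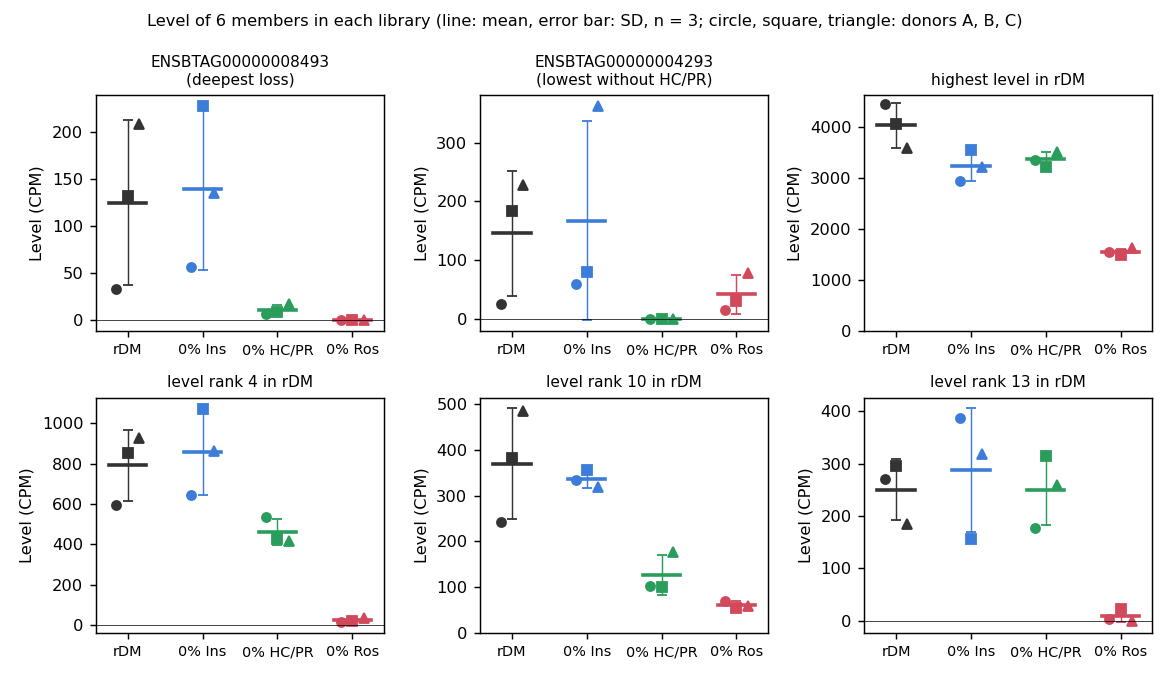
Level (CPM, linear axes) of 6 members in each library: ENSBTAG00000008493, ENSBTAG00000004293 and the members at level ranks 1, 4, 10 and 13 in rDM. Lines are means, error bars the SD over 3 donors and symbols single donors. Without HC/PR, ENSBTAG00000004293 is at 0 in each donor, while the member at rank 13 overlaps with rDM.

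The 10 members of highest level made up 61.2% of the summed rDM level of the members. All 10 had a mean difference without HC/PR below 0, from -1.54 to -0.22. So did 58.2% of the 3861 genes with at least 20 CPM in rDM. In 8 of the 10 members every library without HC/PR lay below every rDM library, as in 7.88% of all genes tested. That 7.88% takes in genes of lower level, and no share at the level of these 10 members is given here. Between 34.1% and 87.3% of the rDM level was left without HC/PR in these 10 members, and between 2.98% and 42.7% without rosiglitazone. None of them passed the test without HC/PR in limma, with adjusted p from 0.0862 to 0.998. In DESeq2 (donor as a block) 1 of them passed, the member at level rank 7, with a difference of -1.11 and an adjusted p of 0.0340, against -1.09 and 0.261 in limma. DESeq2 called 19 genes in all in this comparison and gave no adjusted p to 8803 genes, 99 of them members. Over the 27 fits of the member at rank 7 the adjusted p ranged from 0.0340 to 1.00.

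Over all members, 1 (ENSBTAG00000004293) was lower without HC/PR at an adjusted p under 0.05 in limma, where 0.0108% of the genes tested, which is 1 gene of 9267 and this same gene, were lower. Higher calls numbered 0 among the members and 1 among all genes tested (0.0108%). At an unadjusted p under 0.05, 29 members (27.1%) were lower, against 2.73% of the genes tested, and 0 were higher, against 2.64%. The comparison uses the rDM libraries that also served for the choice, so the counts are not independent of the rule.

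The members' mean difference without HC/PR had a median of -0.47 on the log2 scale, with quartiles of -0.75 and -0.19. The median was -0.07 over the 3861 genes with at least 20 CPM in rDM and 6.92e-05 over all genes tested. By donor, the members' median was -0.32 in A, -0.57 in B and -0.53 in C, and that of the 3861 genes was -0.08, -0.0013 and -0.15. The members were lower than rDM in all 3 donors in 52 cases (48.6%), in 2 donors in 34, in 1 donor in 21 and in no donor in 0. Among all genes tested, 12.4% were lower in each of the 3 donors, and among the 3861 genes 18.0% were. In 45 members (42.1%), all 3 libraries without HC/PR lay below all 3 rDM libraries, against the same 7.88% of the genes tested. That share takes in genes below 20 CPM in rDM, and it is not given for the 3861 genes. In donors A and C, whose media shared a library pool, 58 members (54.2%) were lower in both, against 33.6% of the 3861 genes. The 255 genes that were also lower without insulin had a median of -0.59 without HC/PR, and 51.8% of them were lower in all 3 donors, so low values without HC/PR were not particular to the members. With the pool as a term in the fit, the median was -0.41 over the members and -0.032 over the 3861 genes.

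The mean differences without HC/PR varied between members, and whether they varied beyond the error of single members was not tested. The mean difference was more than 0.5 below rDM in 51 members, within 0.5 of it in 56 and more than 0.5 above it in 0. A mean difference of -1 or lower was seen in 16 members. In 84 members the mean without HC/PR lay between rDM 0% Ros and rDM, in 18 it lay above rDM, and in 5 it lay at or below rDM 0% Ros. The 18 members above rDM had a median rDM level of 26.9 CPM, and none exceeded 97.0 CPM. The highest differences among them were 0.478 and 0.477, in members with a mean of 26.4 and 45.4 CPM in rDM, and both had an adjusted p of 0.998 from limma. The 5 at or below rDM 0% Ros had rDM levels between 25.01 and 305.9 CPM and shallow losses without rosiglitazone, from -1.86 to -1.10. The 95% interval of a member's fitted difference reached a median of 0.90 to either side, and it lay wholly above -1 in 31 members.

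**Figure D3:**
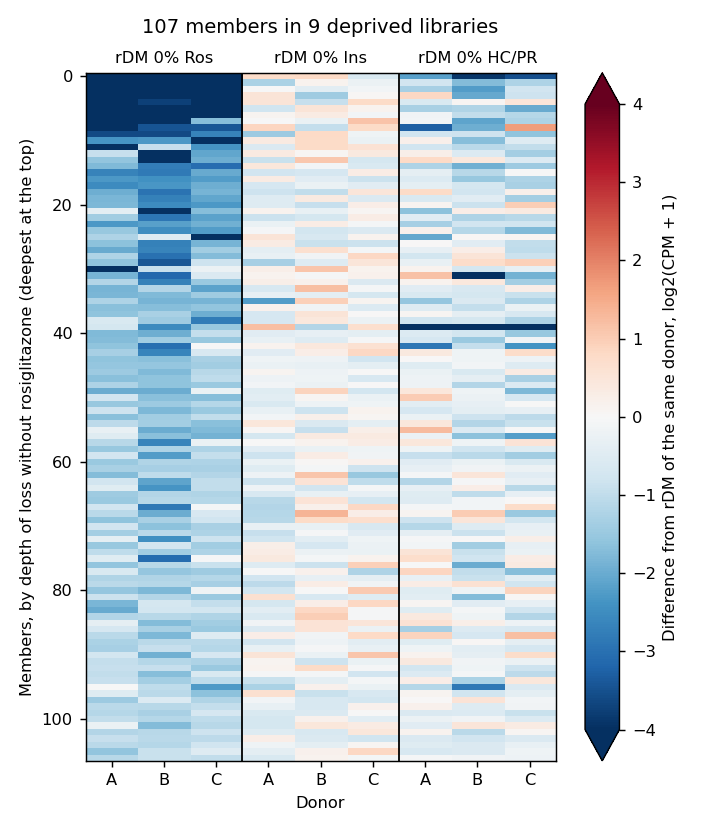
Difference from rDM of the same donor (log2(CPM + 1) scale, colour, cut at 4 in either direction) for the 107 members in the 9 deprived libraries, with members ordered by their loss without rosiglitazone. Blue is lower than rDM and red is higher. The left block is blue throughout because of the rule, and in the right block 89 members (83.2%) have a mean below 0, as do 58.2% of the genes with at least 20 CPM in rDM.

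The same readout was set against the other deprived media. Without HC/PR, the members were a median of 1.11 above rDM 0% Ros and 0.28 below rDM 0% Ins (difference of -0.28), where the median of the 3861 genes was 0.0040 and -0.15. They were above rDM 0% Ros in 102 cases and below rDM 0% Ins in 82. In limma, 27 members (25.2%) were higher without HC/PR than without rosiglitazone at an adjusted p under 0.05, against 1.76% of the genes tested. Lower than without insulin were 3 members (2.80%), against 0.647%. The rule used the rDM 0% Ros and rDM 0% Ins libraries, so these counts are descriptions.

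Depth of loss was then set beside the level in rDM. The median loss was -1.40 in the 50 members between 20 and 50 CPM, -1.38 in the 25 between 50 and 100 CPM, -1.25 in the 25 between 100 and 500 CPM and -1.50 in the 7 above 500 CPM. Across the 107 members, the log2 level and the size of the loss had a Pearson correlation of 0.083 and a Spearman correlation of 0.0033. The Pearson value was 0.254 with a pseudocount of 10 and 0.209 with TMM scaling. These settings changed both the scale and the genes that met the rule. Both axes use the rDM libraries, and members are not replicates. Within donors the Pearson value was 0.12 in A, -0.031 in B and 0.18 in C. With the level without HC/PR on the x axis, which the rule did not use, the Pearson value was -0.070 and the Spearman value -0.17.

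The level limits how deep a loss can be. A gene at 20 CPM can fall by at most 4.39 on this scale, so losses over 5 cannot occur at the lowest levels. The deepest loss was -3.93 in the class from 20 to 50 CPM, -6.13 from 50 to 100 CPM, -6.62 from 100 to 500 CPM and -5.06 above 500 CPM. Losses over 3 were found in 2 of the 50 members of the lowest class, 5 of 25, 3 of 25 and 1 of 7. The 3 members at 0 in all rDM 0% Ros libraries had rDM means of 124.6, 69.3 and 65.4 CPM. Another 3 were at 0 in 2 of these libraries and 8 in 1 of them, while 93 had reads in each. In rDM no member was at 0 in any library.

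The precision differed with the level. The SD of the loss over the 3 donors had a median of 0.73 in the class from 20 to 50 CPM, 0.44 from 50 to 100 CPM, 0.19 from 100 to 500 CPM and 0.15 above 500 CPM. The rDM 0% Ros libraries together held a median of 13 reads per member in the lowest class and 357 in the highest. The lowest class therefore holds losses that rest on a handful of reads.

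**Figure D4:**
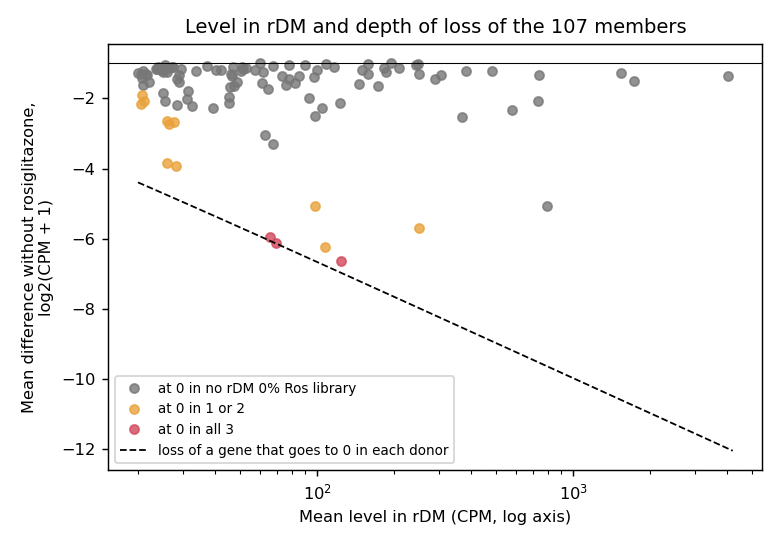
Mean level in rDM (CPM, log axis) against the mean difference without rosiglitazone (log2(CPM + 1) scale) for the 107 members. The solid line is the threshold of the rule and the dashed line the loss of a gene that goes to 0; the colour gives in how many rDM 0% Ros libraries a member is at 0, and the 3 members at 0 in all of them lie at or near the dashed line.

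The values without HC/PR were then set beside the depth of loss, which shares the rDM libraries with them. The median difference without HC/PR was -0.36 for losses between 1 and 1.5, -0.57 between 1.5 and 2, -0.64 between 2 and 3, -1.12 between 3 and 5 and -1.24 over 5. The last 2 classes hold 4 and 7 members. Taken as a whole, the 11 members with a loss over 3 had a median of -1.15 without HC/PR and 0.12 without insulin, and 48.2% of the rDM level was left without HC/PR in the median member. The other 96 had a median of -0.44 without HC/PR and -0.21 without insulin, with 73.8% left. All 3 libraries without HC/PR lay below all 3 rDM libraries in 6 of the 11 members and in 39 of the 96. The share was 7.88% of all genes tested, which include genes of lower level. The 11 members had a summed level of 1391, 1827 and 1852 CPM in rDM, 34.1, 64.3 and 57.7 CPM without rosiglitazone, and 1038, 917.8 and 963.1 CPM without HC/PR.

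When the depth was measured as rDM 0% Ros minus rDM 0% Ins, it was computed from other libraries than the difference between rDM 0% HC/PR and rDM. Across the 107 members these had a Pearson correlation of 0.32 and a Spearman correlation of 0.28, and without ENSBTAG00000004293 these were 0.46 and 0.27. The rule used the rDM libraries and held each member's mean without insulin within 0.5 of rDM, so this correlation is not free of rDM either. All libraries also share the donors and the batch correction.

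The choice was then repeated on 2 donors and read in the third, whose libraries took no part in it except through the batch correction across all libraries. Chosen without donor A, B or C, 176, 107 and 158 genes met the rule, of which 75, 64 and 80 were among the 107 members. Without rosiglitazone, their median in the left-out donor was -0.89 in A, -1.40 in B and -0.82 in C. In the donors used, it had been -1.46, -1.37 and -1.33. The genes with at least 20 CPM in the donors used had medians of 0.0069, -0.14 and 0.085 in the left-out donor. So the loss was shallower in donors A and C when they were left out than in the donors that chose the genes, and of similar size in donor B. The chosen genes were below 0 in 70.5%, 93.5% and 76.6% of cases, against 49.8%, 57.3% and 46.3% of all genes at that level.

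Without HC/PR the genes chosen in this way had medians of -0.24 in donor A, -0.68 in B and -0.44 in C, against -0.062, 0.028 and -0.12 for all genes at that level. They were below rDM in 64.2%, 86.0% and 77.2% of cases, against 54.5%, 48.1% and 57.4%. Genes with a loss over 3 in the donors used numbered 21, 10 and 10, and their median without HC/PR in the left-out donor was -0.46, -1.84 and -0.91. For the genes with a smaller loss it was -0.24, -0.63 and -0.41.

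The insulin condition did not carry over in the same way. In the left-out donor, the chosen genes had a median difference without insulin of -0.40 in A, -0.31 in B and -0.048 in C, where all genes at that level had -0.039, 0.20 and 0.23. Only 39.2%, 33.6% and 44.9% of the chosen genes lay within 0.5 of rDM, which was a smaller share than the 57.9%, 43.9% and 49.0% of all genes at that level. Among the 107 members themselves, 19 lay within 0.5 of rDM in each donor, and 21 were more than 1 away from it in at least 1 donor. The 95% interval of the difference without insulin lay wholly within 0.5 of 0 in 1 member and within 1 in 37, and 0 members passed the test without insulin, where 1.51% of the genes tested did. The rule asked for a mean near rDM in this contrast, so nothing is read from that 0. A 2-fold fall without insulin lay outside the interval in 49 members and inside it in the rest. So the description as lost without rosiglitazone and not without insulin holds for the means of 3 donors. The rule set no condition on HC/PR, without which 16 members had a mean difference of -1 or lower. The share of other genes with such a difference is not given here, and the rDM libraries served for the choice.

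**Figure D5:**
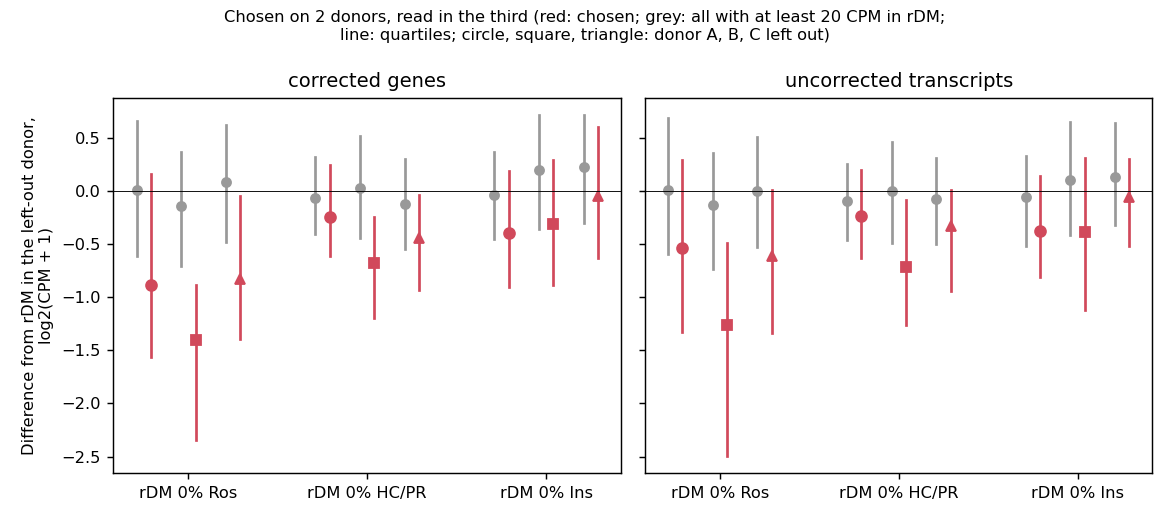
Difference from rDM (log2(CPM + 1) scale) in the donor left out of the choice, for genes of the corrected table (left) and uncorrected transcripts (right). Red symbols are medians of the features chosen on 2 donors and grey symbols medians of all features with at least 20 CPM in rDM of those donors; lines span the quartiles. The red medians lie below the grey medians in each donor and medium.

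The gene table was batch-corrected across all libraries before it was deposited, so a left-out donor is not fully separate in it. The uncorrected transcripts of each library were quantified on their own and were therefore put through the same rule, as CPM of the estimated reads. Of 3962 transcripts with at least 20 CPM in rDM, 117 met the rule. They had a median loss of -1.49 without rosiglitazone and a median of -0.43 without HC/PR, against -0.10 for all 3962 transcripts. They were lower without HC/PR in all 3 donors in 46 cases (39.3%), against 19.4%. Their length had a median of 1862 bases (quartiles 1332 and 2722), close to the 1829 bases (quartiles 1199 and 2676) of all 3962. Level and size of loss had a Pearson correlation of 0.17 and a Spearman correlation of 0.12 across the 117.

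Transcripts chosen on 2 donors and read in the third gave the same signs. Chosen without donor A, B or C, 188, 115 and 172 transcripts met the rule, and their median without rosiglitazone in the left-out donor was -0.53, -1.26 and -0.61. Without HC/PR it was -0.23, -0.71 and -0.33, where all transcripts at that level had -0.092, -0.0021 and -0.070. Transcripts with a loss over 3 in the donors used numbered 35, 16 and 19, and their median without HC/PR was -0.58, -1.69 and -0.45. Of these, 25, 12 and 11 were below 0, against 56.2%, 50.1% and 54.8% of all transcripts at that level. In donor C, 11 of 19 is close to that share. For transcripts with a smaller loss the median was -0.12, -0.65 and -0.33, so the gap between deep and shallow losses was smaller in donor C than in the corrected genes. Without insulin the median of the chosen transcripts was -0.37, -0.38 and -0.051, where all transcripts at that level had -0.058, 0.11 and 0.13. Within 0.5 of rDM without insulin lay 44.1%, 40.0% and 55.2% of the chosen transcripts, against 57.0%, 46.8% and 50.6% of all at that level, so in donor C the share was the larger among the chosen transcripts and not the smaller as among the genes. Which transcript belongs to which gene was not paired here, so these transcripts were not matched to the members. In donor B the libraries without rosiglitazone and without HC/PR were in another pool than rDM, and this donor had the lowest medians in both media. The part of the pool in this was not tested.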

How the data were processed

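mRNA of bovine SVC was read as PCR-amplified cDNA on a Nanopore sequencer, in 2 library pools. The authors mapped the reads to the bovine transcriptome (ARS-UCD1.2) with Minimap2 and quantified them with Salmon, whose estimated counts (reads per transcript) and TPM values were deposited for each library without batch correction. The TPM values were not used. They also deposited CPM values for each gene, which the authors had imported with tximport and corrected with ComBat-seq for the 3 batches. Whether ComBat-seq was told the media is not given in the sources used here. The correction across libraries means that the spread between libraries in this table is not that of independent libraries.

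Each of 100% of the CPM values was a whole multiple (tolerance 0.02) of what 1 count is worth. The counts behind them (295288 to 1107442 per library) were recovered for the count tests and are called reads here. They are counts after the batch correction and not the sequenced reads. The main test was limma 3.58.1 (R 4.3.3) on log2(CPM + 1) over all 12 libraries, with a trend, the donor as a block, and a filter of 5 CPM in 3 or more libraries. The scale understates changes of low genes. The pairing by donor comes from the labels and the study's methods and was checked on the uncorrected transcripts, where the deviations of all 18 pairs of libraries of a donor correlated, by 0.194 to 0.593. In the corrected table, these values were -0.345 to 0.0411. edgeR 4.0.16 and DESeq2 1.42.0 on the recovered reads, other pseudocounts, filters and scalings, thinning to 295288 reads, and each donor or library left out were alternatives. A split of the choice by donors, the rule on transcripts and the pool beside the members' median were added after seeing the data. The library pool was taken from the numbers of the deposited files. The scripts were tested on simulated data.

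The members and lists were chosen with earlier results of these data known. The rule for named genes covered the highest levels, the deepest losses, the lowest and highest values without HC/PR and the genes next to each threshold. Since 0 of the 22372 gene and 0 of the 38030 transcript identifiers could be paired with a symbol, 2 identifiers are given and the lists of fat cell genes and the promoter motifs were not used.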

Additional observations from a re-analysis of the deposited data

How the results depend on the processing

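The median loss of the members moved by less than the spread between donors under another pseudocount (0.1 or 10), TMM scaling, thinning and each donor left out (from -1.46 to -1.29). The median without HC/PR did so too except without replicate C, where it was -0.32 (from -0.590 to -0.320 without a donor). The members themselves changed more than these medians. With a pseudocount of 0.1 or 10, TMM scaling or thinning, 113, 79, 85 and 112 genes met the rule, of which 105, 60, 64 and 73 were among the 107. The number of members was 163 at a minimum of 10 CPM and 57 at 50 CPM, 346 at a loss of 0.5 and 28 at a loss of 2, 52 and 229 at insulin windows of 0.25 and 1, and 107 to 176 without a donor. The correlation of level and loss was 0.254 with a pseudocount of 10 and 0.209 with TMM scaling. The cause of these shifts was not tested, apart from the wider or narrower rule itself.

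The count of members called without HC/PR, 1 in limma, was 0 in thinned libraries and 0 to 1 without a donor. ENSBTAG00000004293 itself no longer met the rule in thinned libraries and without donor B. The count was 2 in edgeR with TMM and in edgeR with DESeq2's size factors, and 3 without a filter and with the 6 libraries alone. ENSBTAG00000004293 passed in 25 of the 26 fits that gave it a value, and was among the 99 members to which DESeq2 gave no adjusted p. Among all genes, calls without HC/PR numbered 1 with the library pool added, 19 in DESeq2, 3 in each edgeR fit, 10 without a filter and 10 with the 6 libraries, and 1 to 4 without a library. Calls without rosiglitazone, 470 in limma, numbered 304 with the library pool added and 259 to 390 without a library. The lowest of these, 290, 259 and 281, came with the rDM library of donor A, B or C left out, and 310 came without replicate A of rDM 0% Ros. With no replicate block, 742 genes were called without rosiglitazone. The block left the count of members called without HC/PR at 1. The cause of these shifts was not tested. No named gene changed sign. Sums of uncorrected transcripts per gene and promoter motifs were not run, for want of a pairing of identifiers.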
